A study of Mus musculus with 46 samples.

Results

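The genes for 9 components of the ErbB system, the family of the epidermal growth factor receptor, were followed in AB1-HA murine mesothelioma before and after cyclophosphamide (CY). They were the ligand genes Ereg, Areg, Hbegf, Egf, Btc and Nrg1 and the receptor genes Egfr, Erbb2 and Erbb3, taken by gene symbol as 9 of the 46011 complete entries of the deposited count table. AB1-HA is a mesothelioma cell line that carries the influenza haemagglutinin and was grown under the skin of male BALB/c mice aged 8 to 10 weeks. Each mouse bore a tumor on either side and received CY at 200 mg/kg. A single tumor per mouse was resected and its bulk RNA sequenced, and the tumor left in place gave the response. CR are complete responders. PR are called partial responders in the series description and progressors in the study. The groups were 13 CR and 13 PR tumors of Day-1 (the day before CY, day 9 after inoculation), 5 CR and 5 PR tumors of Day+3 (day 13), and 5 CR and 5 PR tumors of Day+7 (day 17). All mice of all groups received CY, the Day-1 tumors being taken out before it, so no group is untreated at the later days. The tumors hold host cells besides tumor cells, and each day is a different set of mice.

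Ereg was selected on these data. It was the only gene of 13194 (0.00758%) whose CR minus PR difference changed between Day-1 and Day+7 at a false discovery rate (FDR) under 0.1 in edgeR's quasi-likelihood test. Differences of Ereg between groups are therefore given as a description with no test, and calls are counted over the other 8 genes. For that change the log2 fold change of Ereg was 1.35 ± 0.26 (SE). The genes next in order by the same test, outside the threshold, were Cotl1 (-0.56 ± 0.12) and Cerk (-0.48 ± 0.10).

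The ErbB receptors are tyrosine kinases of the cell surface that dimerise when a ligand binds. EGFR, the product of Egfr, binds epiregulin (Ereg), amphiregulin (Areg), heparin-binding EGF-like growth factor (Hbegf), EGF (Egf) and betacellulin (Btc). ERBB3 binds neuregulin-1 (Nrg1), and ERBB2 has no known ligand and acts as the partner of the others. Most of the ligands are made as membrane proteins and are released by proteases of the ADAM family, and the receptors signal through the RAS and AKT cascades. Epiregulin and heparin-binding EGF-like growth factor also bind ERBB4. EGFR is commonly expressed in mesothelioma, and amphiregulin and epiregulin are known as growth and repair signals of epithelial tissues.

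Summed over the table, a tumor of Day-1 held between 10.2e6 and 14.2e6 counts, with a median of 12.1e6. Tumors of Day+3 were sequenced more deeply (15.4e6 to 18.8e6 counts), as were those of Day+7 (16.1e6 to 19.4e6 counts). Depth and tumor age go with the day and cannot be told apart from it, and Day+3 and Day+7 have like depths. A CR tumor of Day+7, replicate 4 (title CT7_6), stood apart. Its summed fibroblast markers were 33000 CPM (the count of a gene relative to the TMM-adjusted total over the table entries of its library), against 10700 to 16800 CPM in the other 9 Day+7 tumors, and its Msln level was 127 CPM against 50.1 to 66.9 CPM. Differences between CR and PR at Day+7 that rest on this tumor are given with and without it. Msln, the gene for mesothelin and a marker of mesothelium and mesothelioma, was high before CY, but Krt18, Krt19, Calb2, Lrrn4 and Gpm6a averaged under 1 CPM at each day and Muc16 was at 0 in all Day+7 tumors. Krt8 had means of 12.2, 29.5 and 0.913 CPM and Krt7 of 2.845, 9.92 and 1.67 CPM (Day-1, Day+3 and Day+7). The other listed mesothelial markers, Krt7 and Krt8 included, were thus low beside Msln, which averaged 382, 361 and 65.6 CPM at these days. Markers with symbols beyond the end of the table could not be examined. Skin keratinocyte genes varied widely within groups, and 16 tumors, 10 of them of Day-1, held more than 10 CPM of the basal keratinocyte gene Krt5. These 10 Day-1 tumors all had title numbers above 14, a numbering that the labels do not explain.

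Ereg, Areg and Btc lie in a cluster of EGF ligand genes on chromosome 5 that also holds Epgn, the gene for epigen. The cluster spans chr5:91027517-91402994 in GRCm38.p6, or 375.5 kb over 4 genes. Ereg covers chr5:91074617-91093649, Areg chr5:91139599-91148432 and Btc chr5:91357261-91402994. The receptor genes Egfr (chr11:16752203-16913907) and Erbb2 (chr11:98412484-98437716) share a chromosome, and Erbb3 is at chr10:128567523-128589635. Egf is at chr3:129677574-129755322, and Nrg1, with a length of 1084 kb, is at chr8:31807452-32891609. All are protein-coding genes.

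The 250 bases before the start of transcription are shown for 4 genes that changed together or apart in the days after CY. Areg and Btc are neighbors that both rose at Day+3 and fell at Day+7, Erbb2 fell at both days, and Egfr rose at Day+7. Sequences are from RefSeq (GRCm38.p6) and are written 5′ to 3′ on the strand of the gene. Capitals mark matches to TATAAA (the TATA box), TGACGTCA (the full cyclic AMP response element, CRE), GGGCGG (the GC box of SP1) or CCAAT, searched on both strands, with no overlap between matches.
Areg (chr5:91139349-91139598, plus strand): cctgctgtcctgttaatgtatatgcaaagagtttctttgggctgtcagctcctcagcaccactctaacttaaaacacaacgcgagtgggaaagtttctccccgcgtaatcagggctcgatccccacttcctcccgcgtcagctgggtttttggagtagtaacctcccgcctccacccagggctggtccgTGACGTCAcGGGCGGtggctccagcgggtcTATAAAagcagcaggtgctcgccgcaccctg
Btc (chr5:91402995-91403244, minus strand): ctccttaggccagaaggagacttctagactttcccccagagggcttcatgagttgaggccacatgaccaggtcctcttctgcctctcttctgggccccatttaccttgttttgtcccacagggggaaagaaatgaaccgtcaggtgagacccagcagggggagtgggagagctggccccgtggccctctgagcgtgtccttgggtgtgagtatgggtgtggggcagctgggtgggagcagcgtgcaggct
Egfr (chr11:16751953-16752202, plus strand): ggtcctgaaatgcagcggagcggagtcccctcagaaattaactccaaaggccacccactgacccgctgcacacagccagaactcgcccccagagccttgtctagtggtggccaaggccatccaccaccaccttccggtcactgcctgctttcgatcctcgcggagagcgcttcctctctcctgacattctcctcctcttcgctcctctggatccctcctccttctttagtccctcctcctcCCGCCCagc
Erbb2 (chr11:98412234-98412483, plus strand): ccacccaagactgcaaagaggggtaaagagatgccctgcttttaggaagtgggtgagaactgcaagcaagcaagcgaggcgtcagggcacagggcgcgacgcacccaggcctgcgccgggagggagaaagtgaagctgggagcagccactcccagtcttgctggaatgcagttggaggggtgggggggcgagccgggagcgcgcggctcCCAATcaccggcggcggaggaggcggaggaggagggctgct
Areg holds TGACGTCA 61 bases, GGGCGG 52 bases and TATAAA 31 bases before its start. Egfr holds GGGCGG on the opposite strand 9 bases before the start, Erbb2 holds CCAAT 41 bases before it, and Btc holds none of the 4. Over the windows of the same length before 32851 RefSeq starts, TGACGTCA was in 1.55%, TATAAA in 12.4%, GGGCGG in 32.7% and CCAAT in 33.8%. The windows of Areg, Btc, Egfr and Erbb2 were 57.2%, 59.6%, 60.8% and 66% G or C, against a median of 52.4%. A match is a description of these letters and not a bound site.

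Before CY, ligand and receptor transcripts were both present. Per kilobase of the longest coding transcript, Hbegf was the highest of the 9 genes at Day-1 with 28.1 ± 6.94 CPM per kb (SD, n = 26), followed by Erbb2 with 13.1 ± 1.54, Ereg with 7.77 ± 1.44, Nrg1 with 6.95 ± 1.29 and Egfr with 5.57 ± 0.718 CPM per kb. Btc (4 ± 0.793) and Areg (3.48 ± 1.07) came next, then Erbb3 (1.18 ± 0.335) and Egf (0.648 ± 0.144). Ereg and Nrg1, and Btc and Areg, lay within 1 SD of each other. Nrg1 has 12 coding transcripts and Egfr 3, and with their mean lengths Nrg1 (16.1 CPM per kb) and Egfr (12.5 CPM per kb) would rank above Ereg. At Day+7 the order differed. Egfr (9.67 ± 1.98 CPM per kb, n = 10) and Hbegf (9.64 ± 3.32) were highest, and Ereg (1.06 ± 0.695) and Areg (0.581 ± 0.318) were among the 3 lowest with Egf (0.832 ± 0.213). With mean lengths, Nrg1 (11.7 CPM per kb) would rank between Egfr (21.7 CPM per kb) and Hbegf at Day+7.

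**Figure D1:**
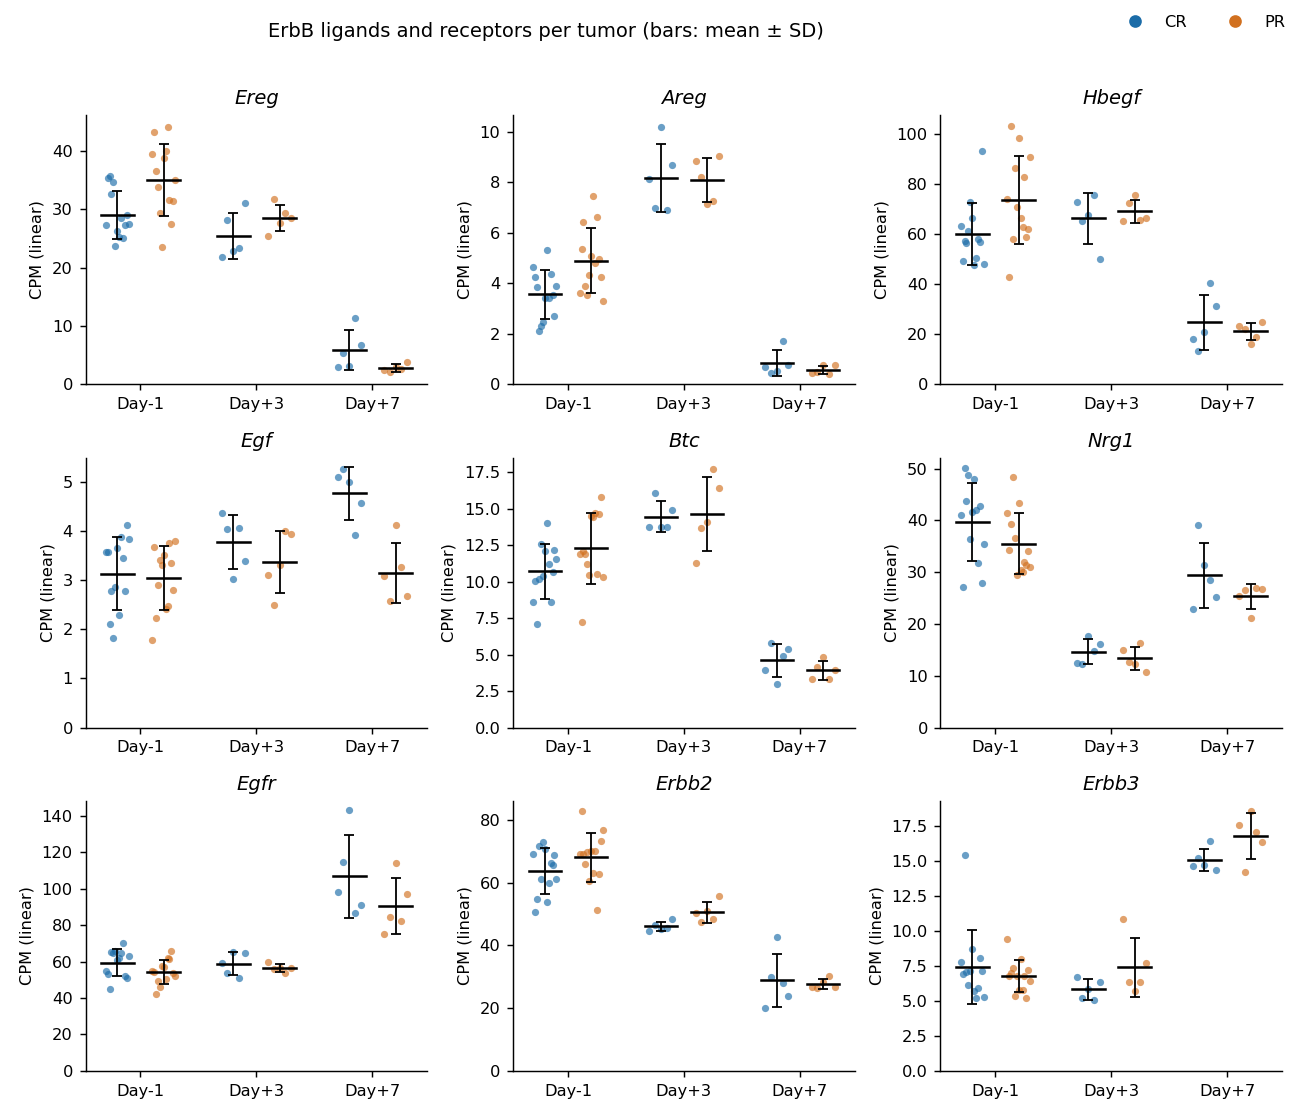
CPM of the 9 genes in each of the 46 tumors (points, linear axes from 0), by day relative to CY, with CR in blue and PR in orange and bars for the mean ± SD. Ereg, Areg, Hbegf and Btc are lowest at Day+7, Egfr and Erbb3 highest at Day+7, and Nrg1 lowest at Day+3, while CR and PR overlap in every panel.

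Levels of Ereg at Day+3 overlapped those before CY, and levels at Day+7 lay far below both. At Day-1 the 26 tumors had 23.5, 31.5 and 44.2 CPM (lowest, median and highest). At Day+3 the 5 CR tumors had 21.9, 22.9, 23.4, 28.1 and 31.1 CPM and the 5 PR tumors 25.5, 27.6, 28.5, 29.4 and 31.7 CPM. At Day+7 the CR tumors had 3.02, 3.23, 5.31, 6.75 and 11.4 CPM and the PR tumors 2.11, 2.53, 2.55, 2.93 and 3.81 CPM. All 10 Day+7 tumors lay below all tumors of the other days. The log2 fold change of Day+7 against Day-1, with CR and PR weighted equally, was -2.97 ± 0.14 (SE), a level 7.84-fold lower, and that of Day+3 against Day-1 was -0.29 ± 0.12. In bulk tumors, fewer cells of a type and less RNA per cell cannot be told apart.

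Areg, the gene next to Ereg in the cluster, rose first and then fell. The median was 4.07 CPM at Day-1 (range 2.13 to 7.44), 8.15 CPM at Day+3 (6.89 to 10.2) and 0.621 CPM at Day+7 (0.424 to 1.73). At Day+3, 6 of 10 tumors were above all Day-1 tumors, and at Day+7 all 10 were below all others. Areg was 1.89-fold higher at Day+3 than at Day-1 (log2 0.91 ± 0.13, edgeR adjusted p = 3.34e-08). It was 11.3-fold lower at Day+7 than at Day+3 (log2 -3.49 ± 0.19, adjusted p = 1.24e-20) and 5.98-fold lower than at Day-1 (log2 -2.58 ± 0.18, adjusted p = 7.1e-18). Without replicate 4 of CR Day+7 the last value was -2.79.

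Btc followed the same course with smaller changes. Its median was 11.4 CPM at Day-1 (7.08 to 15.8), 13.9 CPM at Day+3 (11.3 to 17.8) and 4.06 CPM at Day+7 (2.98 to 5.81), and no Day+7 tumor reached the lowest of the other days. The rise at Day+3 over Day-1 was 1.23-fold (log2 0.30 ± 0.10, edgeR adjusted p = 0.00523) and the fall at Day+7 below Day-1 2.70-fold (log2 -1.43 ± 0.11, adjusted p = 2.99e-16). Against Day+3 the fall was 3.33-fold (log2 -1.73 ± 0.12, adjusted p = 7.08e-17).

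Hbegf, on chromosome 18, did not pass the test at Day+3 and fell at Day+7. The median was 62.4 CPM at Day-1 (42.8 to 103), 67.0 CPM at Day+3 (49.8 to 75.7) and 21.5 CPM at Day+7 (13.2 to 40.4), with all Day+7 tumors below the others. The log2 fold change of Day+3 against Day-1 was -0.02 ± 0.12 (edgeR adjusted p = 0.888), and its sign turned with DESeq2's size factors (0.01). At Day+7 Hbegf was 2.92-fold lower than at Day-1 (log2 -1.54 ± 0.13, adjusted p = 1.48e-14) and 2.88-fold lower than at Day+3 (log2 -1.53 ± 0.15, adjusted p = 1.44e-12). Among the EGFR ligands tested, Egf alone did not fall at Day+7. It had medians of 3.33, 3.67 and 4.01 CPM at Day-1, Day+3 and Day+7, and was 1.25-fold higher at Day+7 than at Day-1 (log2 0.32 ± 0.11, adjusted p = 0.00732), with 4 of 10 Day+7 tumors above all Day-1 tumors. Its changes at Day+3 (log2 0.16 ± 0.11, adjusted p = 0.181) and between Day+3 and Day+7 (0.16 ± 0.13, adjusted p = 0.286) did not pass.

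Nrg1, the ligand gene of ERBB3, went the other way from Areg at Day+3. Its median was 36.5 CPM at Day-1 (27.2 to 50.1), 13.8 CPM at Day+3 (10.7 to 17.8) and 26.7 CPM at Day+7 (21.1 to 39.04). All 10 Day+3 tumors lay below all tumors of either other day. The fall at Day+3 below Day-1 was 2.77-fold (log2 -1.47 ± 0.10, edgeR adjusted p = 1.78e-17) and the rise at Day+7 over Day+3 2.004-fold (log2 1.003 ± 0.11, adjusted p = 8.51e-11). At Day+7 Nrg1 was still 1.38-fold lower than at Day-1 (log2 -0.47 ± 0.09, adjusted p = 1.68e-05), with 7 of 10 tumors below all Day-1 tumors. Without the tumors above 10 CPM of Krt5 this value was -0.23 (adjusted p = 0.0846). The Day-1 tumors left out all had title numbers above 14, so leaving them out changes skin RNA and title number together. CT16 and CT20, also numbered above 14, held 0.165 and 0.426 CPM of Krt5 and 41.5 and 43.7 CPM of Nrg1. The part of skin RNA and of title number in the Nrg1 value was not tested.

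The receptor genes moved apart from each other. Egfr had 42.2 to 70.0 CPM at Day-1 (median 55.9), 50.9 to 65.3 CPM at Day+3 (median 56.4) and 75.0 to 143 CPM at Day+7 (median 94.1), so that every Day+7 tumor was above every earlier one. It was 1.72-fold higher at Day+7 than at Day-1 (log2 0.79 ± 0.07, edgeR adjusted p = 2.54e-14) and showed a log2 difference of -0.03 ± 0.07 at Day+3 (adjusted p = 0.736), the sign of which turned with DESeq2's size factors (0.005). Erbb3 had medians of 6.86, 6.33 and 15.8 CPM at Day-1, Day+3 and Day+7. Its Day+7 tumors (14.2 to 18.6 CPM) were above all Day+3 tumors (5.04 to 10.9 CPM), and 5 of 10 were above the highest Day-1 tumor, a CR tumor at 15.4 CPM. The rise was 2.23-fold over Day-1 (log2 1.16 ± 0.10, adjusted p = 9.27e-14) and 2.49-fold over Day+3 (log2 1.32 ± 0.13, adjusted p = 5.08e-12).

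Erbb2 fell step by step. It had 50.7 to 82.8 CPM at Day-1 (median 67.5), 44.6 to 55.9 CPM at Day+3 (median 47.9) and 20.2 to 42.6 CPM at Day+7 (median 27.4). At Day+3, 8 of 10 tumors were below all Day-1 tumors, and at Day+7 all were below all others. The fall was 1.41-fold at Day+3 (log2 -0.49 ± 0.07, edgeR adjusted p = 1.53e-08) and 2.33-fold at Day+7 against Day-1 (log2 -1.22 ± 0.07, adjusted p = 3.64e-20). Between Day+7 and Day+3 it was 1.66-fold (log2 -0.73 ± 0.08, adjusted p = 7.03e-11). ERBB2 and ERBB3 form a pair that binds neuregulins. Over the days, Erbb3 had its own highest level and Erbb2 its own lowest at Day+7. Erbb2 was still the more abundant there, with means of 28.3 CPM against 15.9 CPM for Erbb3.

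**Figure D2:**
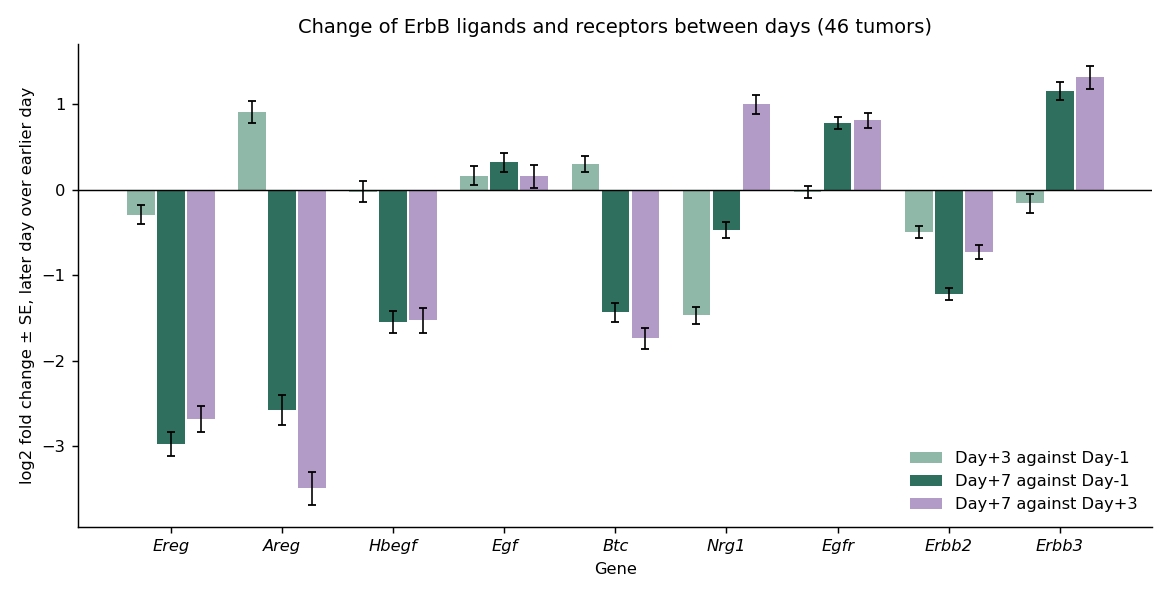
Log2 fold changes of the 9 genes between days (later over earlier, mean of CR and PR, error bars SE, edgeR model of 46 tumors). Areg and Btc are above 0 at Day+3 and below 0 at Day+7, Nrg1 is lowest at Day+3 (-1.47), and Egfr and Erbb3 are higher at Day+7 while Erbb2 is lower.

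Over the other 8 genes, 2 rose (Areg, Btc) and 2 fell (Nrg1, Erbb2) at Day+3 against Day-1, where 37.9% of the 13194 genes tested rose and 39.6% fell. At Day+7 against Day-1, 3 rose (Egf, Egfr, Erbb3) and 5 fell (Areg, Hbegf, Btc, Nrg1, Erbb2), against 43% and 42.8% of all genes, and from Day+3 to Day+7, 3 rose (Nrg1, Egfr, Erbb3) and 4 fell (Areg, Hbegf, Btc, Erbb2), against 38.8% and 36.5%. Most genes of these tumors changed between days, so that a call by itself does not set a gene apart. The ranges did not overlap between Day+3 and Day-1 for 1 of the 8 genes (26.9% of all genes), between Day+7 and Day-1 for 5 of 8 (39.4%) and between Day+7 and Day+3 for 7 of 8 (36.9%). The median log2 fold change of the 8 genes was -0.84 at Day+7 against Day-1, beside -0.006 over all genes.

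Of 6 other ErbB genes listed, 5 were covered by the table. Tgfa was not analysed here. Nrg2, a neuregulin gene, was low at Day-1 with 0.458 CPM in CR and 0.247 CPM in PR tumors (medians) and at Day+3 (0.307 and 0.2704 CPM), and had 4.08 CPM in CR and 5.30 CPM in PR tumors at Day+7. It was 11.97-fold higher at Day+7 than at Day-1 (log2 3.58 ± 0.23, edgeR adjusted p = 8.11e-19). Nrg4, whose product binds ERBB4, was 1.21-fold higher at Day+3 (log2 0.28 ± 0.11, adjusted p = 0.0202) and 1.53-fold higher at Day+7 (log2 0.61 ± 0.11, adjusted p = 1.4e-06) than at Day-1. Epgn and Nrg3 averaged 0.502 CPM or less in every group and were not tested. Erbb4 averaged under 0.02 CPM, close to 0.

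Genes that release ErbB ligands or carry their signal changed in both directions. Of 11 ligand processing genes (ADAM proteases, Furin, Bace1 and the iRhom genes) 9 were tested, the iRhom genes not being among the symbols analysed. Of these 9, 1 rose and 5 fell at Day+3 (37.9% and 39.6% of all genes) and 4 rose and 4 fell at Day+7 (43% and 42.8%) against Day-1. Adam15 rose at both days (log2 0.72 ± 0.04 and 1.20 ± 0.04, edgeR adjusted p = 8.53e-21 and 9.84e-30). Adam17, the main releasing enzyme of amphiregulin, epiregulin and heparin-binding EGF-like growth factor, fell at Day+3 (-0.19 ± 0.04, adjusted p = 7.11e-05) and rose at Day+7 (0.80 ± 0.04, adjusted p = 4.23e-23). Adam10, which releases EGF and betacellulin, fell at Day+3 (-0.43 ± 0.02, adjusted p = 4.06e-20). Adam8, a protease of myeloid cells, rose at Day+7 (2.27 ± 0.08, adjusted p = 2.53e-29), and Bace1, which cleaves neuregulin-1, fell (-1.26 ± 0.06, adjusted p = 4.22e-23). From Day+3 to Day+7, 5 of the 9 rose and 3 fell (38.8% and 36.5% of all genes).

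Of 24 genes of the signal cascade (adaptors, RAS, RAF, MEK, ERK, AKT and CBL genes) 21 were tested, of which 7 rose and 13 fell at Day+3 (37.9% and 39.6% of all genes) and 9 rose and 9 fell at Day+7 (43% and 42.8%) against Day-1, and 12 rose and 3 fell between Day+3 and Day+7 (38.8% and 36.5%). Crk, an adaptor gene, was lower at both days (log2 -0.56 ± 0.03 at Day+3 and -0.63 ± 0.03 at Day+7, edgeR adjusted p = 1.55e-20 and 1.03e-22). Grb2, the adaptor that links receptors to RAS, was higher at Day+7 (1.01 ± 0.04, adjusted p = 7.17e-25). Cbl, a ubiquitin ligase that removes active EGFR, fell at Day+3 (-0.96 ± 0.05, adjusted p = 3.55e-20) and rose from Day+3 to Day+7 (1.16 ± 0.06, adjusted p = 8.44e-21).

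Of 20 feedback regulators and genes commonly induced by ErbB signals 18 were tested, of which 4 rose and 11 fell at Day+3 (37.9% and 39.6% of all genes) and 6 rose and 9 fell at Day+7 (43% and 42.8%) against Day-1, and 9 rose and 7 fell between Day+3 and Day+7 (38.8% and 36.5%). At Day+3 Myc (log2 -2.08 ± 0.11, edgeR adjusted p = 6.1e-22), Fos (-1.14 ± 0.10, adjusted p = 2.44e-14) and the ERK phosphatase gene Dusp4 (-1.32 ± 0.15, adjusted p = 1.04e-10) fell and Ier3 rose (0.96 ± 0.11, adjusted p = 5.25e-11). At Day+7 Fosl1 fell (-4.23 ± 0.17, adjusted p = 1.12e-26), while Ier3 (3.58 ± 0.10, adjusted p = 3.18e-32), Egr2 (3.20 ± 0.08, adjusted p = 5.67e-33) and Maff (1.74 ± 0.07, adjusted p = 1.35e-25) rose. Lrig1, which promotes the breakdown of ErbB receptors, fell from Day+3 to Day+7 (-1.92 ± 0.08, adjusted p = 2.92e-25). These lists hold genes that also act downstream of other receptors.

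Host cell markers moved with the days. Summed macrophage and monocyte markers had medians of 3250 CPM in CR and 2978 CPM in PR tumors at Day-1, 5999 and 5951 CPM at Day+3, and 10420 and 11400 CPM at Day+7. Fibroblast markers had medians of 24540 CPM in CR and 22040 CPM in PR tumors at Day-1, 32820 and 31620 CPM at Day+3, and 13730 and 15060 CPM at Day+7. The fall of this sum at Day+7 followed its 3 most abundant genes, the collagen genes Col3a1, Col1a2 and Col1a1, which were called lower than at Day-1 (log2 -0.90, -0.67 and -1.13, with 42.8% of all genes called lower). Of the other 6 fibroblast genes 5 were called higher (43% of all genes), and the median of the list was 0.27. Endothelial markers were at 253.5, 263.2 and 472.2 CPM in CR and at 271.9, 278.2 and 540.8 CPM in PR tumors (medians at Day-1, Day+3 and Day+7). Skeletal muscle (medians of 447 to 943 CPM over the groups), peripheral nerve (32.5 to 93.2 CPM, 7 of 8 genes covered), mast cell (110 to 350 CPM) and T cell markers (55.9 to 284 CPM) had their highest medians at Day+7. Summed neutrophil markers had medians of 672 and 809 CPM at Day-1, 2031 and 2204 CPM at Day+3, and 1230 and 768 CPM at Day+7 (CR and PR). Mmp9, a matrix protease gene, made up most of this sum at Day+3 (mean 2122 CPM, against 792 CPM at Day-1 and 268 CPM at Day+7). The other 8 neutrophil genes were all called higher at Day+7 than at Day-1 (43% of all genes) and than at Day+3 (38.8%). The median of the 9 genes was log2 4.73 against Day-1. Mmp9 and the collagen genes were singled out after their values were seen. Apart from Muc16 in the mesothelial list, no marker listed was at 0 in all tumors of a group. The part of these cells in the changes of the ErbB genes was not tested.

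Between CR and PR before CY, the EGFR ligands Ereg, Areg, Hbegf and Btc had lower means in CR, and none of the 8 genes tested was called by edgeR. Ereg had 23.8, 27.5 and 35.7 CPM (lowest, median and highest) in CR and 23.5, 35.1 and 44.2 CPM in PR tumors, with 11 of 13 CR tumors below the PR median and a log2 fold change of -0.26 ± 0.09 (SE). Areg averaged 3.56 ± 0.963 CPM in CR and 4.89 ± 1.29 CPM in PR tumors (SD, n = 13 each), with 12 of 13 CR tumors below the PR median and 4 below all PR tumors. Its log2 fold change was -0.45 ± 0.14 (edgeR adjusted p = 0.152). Hbegf averaged 60.0 ± 12.4 CPM in CR and 73.6 ± 17.7 CPM in PR tumors, with 11 of 13 CR tumors below the PR median (log2 -0.29 ± 0.12, adjusted p = 0.205). Btc averaged 10.7 ± 1.89 CPM in CR and 12.3 ± 2.44 CPM in PR tumors (log2 -0.19 ± 0.11, adjusted p = 0.365). Of the 8 genes, Areg and Hbegf were under an unadjusted p of 0.05, as were 17.5% of all genes, and the adjusted p of the other 6 ran from 0.326 to 0.876.

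In this comparison edgeR called 1 of 10777 genes (0.00928%). DESeq2, the tool of the study's methods, called 4.11% of the genes and limma-voom with quality weights 11%, and each of these called 1 of the 8 genes, Areg, with adjusted p of 0.0788 and 0.0481. Leaving out 1 tumor in turn gave 0 to 2 calls with edgeR. Areg was called without CR replicate 3 and without PR replicates 7 or 9, and Hbegf without PR replicate 9. Msln, too, had a lower mean in CR (346 ± 40.4 CPM) than in PR tumors (418 ± 89.0 CPM) at Day-1. Of the 3 mesothelial genes tested, edgeR called 0 in this comparison, with 2 under an unadjusted p of 0.05, and DESeq2 and limma-voom each called 2. Per 100 CPM of Msln, Ereg was at 8.47 ± 1.19 in CR and 8.51 ± 1.22 in PR tumors, Areg at 1.02 ± 0.222 and 1.17 ± 0.141, and Hbegf at 17.2 ± 2.12 and 17.7 ± 2.63. The ratio of Ereg to Msln thus differed between CR and PR by less than the spread between tumors. Marker lists of host cells were set beside these values. The fitted values of all 9 T cell genes were higher in CR at Day-1 (9 under an unadjusted p of 0.05, median log2 0.60), as were those of all 11 macrophage and monocyte genes (6 under it, median 0.32), with none called by edgeR. Summed T cell markers were at 56.6 to 191 CPM in CR and 32.0 to 150 CPM in PR tumors, and macrophage and monocyte markers at 2784 to 4729 and 1970 to 3639 CPM. All 9 fibroblast genes (4 under it, median 0.14) and all 12 skeletal muscle genes (4 under it, median 0.59) had higher fitted values in CR as well. So did 7 of 7 skin keratinocyte, 4 of 4 peripheral nerve, 5 of 6 mast cell and 3 of 4 neutrophil genes tested. Lower in CR were 7 of 8 endothelial genes (1 under it, median -0.09) and 2 of the 3 mesothelial genes. Over all genes, 5096 of 10777 were higher in CR and 17.5% were under an unadjusted p of 0.05 in edgeR. The part of these cells in the ligand differences was not tested.

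At Day+3 no gene of the set passed the test between CR and PR. Areg averaged 8.16 ± 1.36 CPM in CR and 8.10 ± 0.876 CPM in PR tumors, and Hbegf 66.2 ± 10.1 and 69.1 ± 4.66 CPM (SD, n = 5 each). Erbb2 had 44.6, 45.2, 45.4, 46.6 and 48.3 CPM in CR and 47.4, 48.3, 50.2, 50.8 and 55.9 CPM in PR tumors. Of the CR tumors 4 were below all PR tumors, and the log2 fold change was -0.13 ± 0.06 (edgeR adjusted p = 1), or -0.08 without replicate 1 of PR Day+3 (title CT3_2), the only Day+3 tumor above 10 CPM of Krt5. For Ereg it was -0.16 ± 0.10. None of the 8 genes was called by edgeR, DESeq2 or limma-voom, 1 (Erbb2) was under an unadjusted p of 0.05, as were 2.16% of all genes, and edgeR called 0% of 11839 genes. Without that PR tumor none of the 8 was under it. The fitted values of all 6 skin keratinocyte genes tested were lower in CR than in PR tumors at this day, 5 of them under an unadjusted p of 0.05 and none called by edgeR, DESeq2 or limma-voom, with summed markers of 90.0 to 119 CPM in CR and 93.2 to 1127 CPM in PR tumors. The 1127 CPM belonged to replicate 1 of PR Day+3 alone, the other 4 PR tumors having 93.2 to 141 CPM, and without it 5 of 6 skin genes were lower in CR and 2 were under an unadjusted p of 0.05.

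At Day+7 Ereg and Egf had higher means in CR, with no call among the genes tested. Ereg averaged 5.95 ± 3.44 CPM in CR and 2.79 ± 0.644 CPM in PR tumors (SD, n = 5 each), and all 5 CR tumors were above the PR median and 3 above all PR tumors. The log2 fold change was 1.10 ± 0.36 (SE), and 0.71 without replicate 4 of CR Day+7, the tumor that stood apart and the highest in Ereg. Egf had 3.91, 4.58, 5.001, 5.11 and 5.25 CPM in CR and 2.58, 2.68, 3.09, 3.28 and 4.12 CPM in PR tumors, with 4 CR tumors above all PR tumors. Its log2 fold change was 0.60 ± 0.16 (edgeR adjusted p = 0.967). Areg averaged 0.836 ± 0.516 CPM in CR and 0.576 ± 0.168 CPM in PR tumors (log2 0.57 ± 0.39, adjusted p = 0.967). Without replicate 4, the 4 other CR tumors averaged 0.614 ± 0.156 CPM of Areg and the log2 value was 0.11. Leaving out the tumors above 10 CPM of Krt5 takes away 2 CR and 3 PR tumors of Day+7. Areg (log2 -0.16) and Erbb2 (-0.21) then had lower fitted values in CR, while Ereg (0.90) and Egf (0.69) stayed higher. Of the 8 genes, none was called by edgeR, DESeq2 or limma-voom, 1 (Egf) was under an unadjusted p of 0.05, as were 2.84% of all genes, and edgeR called 0% of 11727 genes. The fitted values of 7 of the 8 genes were higher in CR and only that of Erbb3 lower, beside 6003 of 11727 genes higher in CR. Without replicate 4 of CR Day+7 this was 5 of the 8, Hbegf (log2 -0.02) and Erbb2 (-0.12) also being lower, beside 6251 of 11889 genes.

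**Figure D3:**
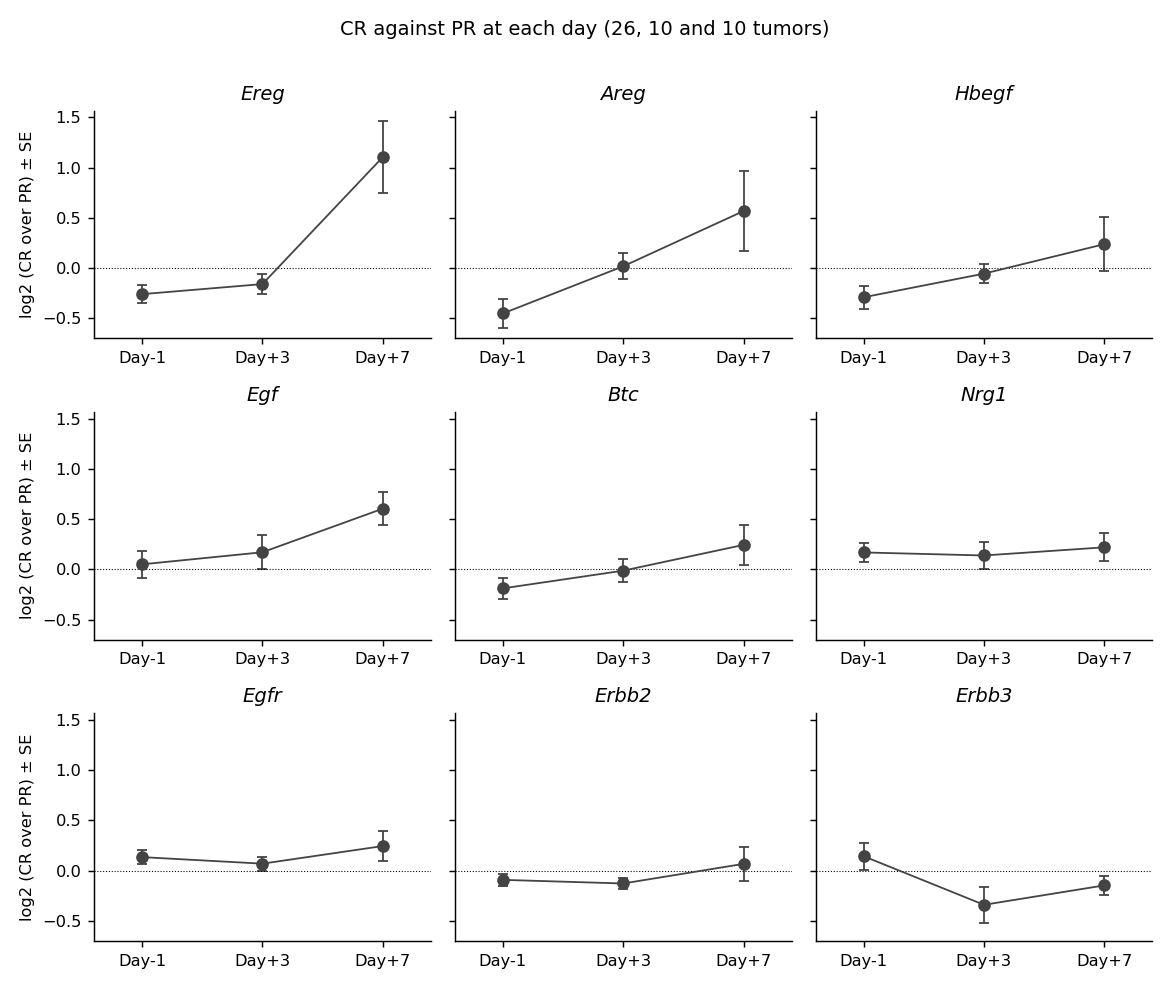
Log2 fold change of CR over PR for the 9 genes at each day (error bars SE, 26, 10 and 10 tumors, lines join different tumors and are drawn as a guide only). The values of Ereg (-0.26, -0.16 and 1.10), Areg (-0.45, 0.02 and 0.57) and Hbegf (-0.29, -0.05 and 0.24) run upward over the days. Those of Btc (-0.19, -0.01 and 0.24) and Egf (0.05, 0.17 and 0.60) do so too. Without replicate 4 of CR Day+7 the Day+7 values were 0.71 (Ereg), 0.11 (Areg), -0.02 (Hbegf), 0.14 (Btc) and 0.665 (Egf). Without the tumors above 10 CPM of Krt5 they were 0.904 (Ereg), -0.158 (Areg), 0.035 (Hbegf), 0.022 (Btc) and 0.693 (Egf). Ereg was chosen by its change between Day-1 and Day+7.

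The change of the CR minus PR difference was tested in the model of 46 tumors. Between Day-1 and Day+7 it was 1.01 ± 0.34 for Areg (log2, edgeR adjusted p = 0.336), 0.52 ± 0.25 for Hbegf (adjusted p = 0.418), 0.55 ± 0.22 for Egf (adjusted p = 0.37) and 0.42 ± 0.21 for Btc (adjusted p = 0.426). These 4 were under an unadjusted p of 0.05, as were 11.5% of all genes, and 0 of the 8 genes were called by edgeR, DESeq2 or limma-voom, beside 0.00758% of all genes by edgeR. The rule that chose Ereg used this contrast. Without replicate 4 of CR Day+7 the value of Ereg was 0.97, that of Areg 0.57, that of Hbegf 0.28 and that of Btc 0.33, and of the 8 genes Egf alone (0.62) was under an unadjusted p of 0.05. Without the tumors above 10 CPM of Krt5, which leaves 3 CR and 2 PR tumors at Day+7, the values of Areg (0.35) and Btc (0.20) were smaller and none of the 8 was under it. Between Day-1 and Day+3 the change was -0.49 ± 0.22 for Erbb3 (adjusted p = 1), the only gene of the 8 under an unadjusted p of 0.05 (3.49% of all genes), and 0 were called by any of the 3 tools, with 0% of all genes called by edgeR. The value of Erbb3 was -0.31 without replicate 1 of PR Day+3, -0.32 with limma-voom and -0.13 without the tumors above 10 CPM of Krt5. Nrg2 had a change of -1.54 ± 0.50 between Day-1 and Day+7 (adjusted p = 0.336).

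Of the genes of ligand processing, the cascade and the feedback list, edgeR called none between CR and PR at any day or in either change of the difference. Under an unadjusted p of 0.05 were 2 of 9, 1 of 21 and 1 of 18 genes at Day-1 (17.5% of all genes), 0 of 9, 0 of 21 and 2 of 18 at Day+3 (2.16%), and 1 of 9, 0 of 21 and 0 of 18 at Day+7 (2.84%). At Day-1 limma-voom called 2 ligand processing genes and 1 cascade gene (11% of all genes) and DESeq2 1 cascade gene (4.11%), and at Day+3 and Day+7 neither called any. In the change between Day-1 and Day+7, 3 of 9, 2 of 21 and 2 of 18 were under an unadjusted p of 0.05 (11.5% of all genes) and DESeq2 called 1 ligand processing gene. The share of all genes that DESeq2 called in this change was not determined, so the call is not weighed. In the change between Day-1 and Day+3, 0 of 9, 1 of 21 and 0 of 18 were under an unadjusted p of 0.05 (3.49% of all genes), with no call by the other tools.

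Ereg and Msln were both low at Day+7. Ereg was chosen by the change of its CR minus PR difference between Day-1 and Day+7. Its ratios to Msln in CR and PR reuse those values, so they are a description only. Msln averaged 382 CPM at Day-1, 361 CPM at Day+3 and 65.6 CPM at Day+7, and edgeR called all 3 mesothelial genes tested lower at Day+7 than at Day-1 (42.8% of all genes). At Day+3 it called 2 of the 3 higher than at Day-1 (37.9% of all genes) and none lower. Summed over the 9 listed genes, the mesothelial markers were at 286 to 433 CPM in CR and 305 to 613 CPM in PR tumors at Day-1, at 316 to 488 and 353 to 505 CPM at Day+3, and at 56.8 to 135 and 53.1 to 70.0 CPM at Day+7. Most of this sum was Msln itself, which had 278.5 to 579.4 CPM at Day-1 and 50.1 to 127 CPM at Day+7. Per 100 CPM of Msln, Ereg was at 7.27 ± 0.520 in CR and 7.73 ± 0.565 in PR tumors at Day+3. At Day+7 this ratio was 4.604, 6, 9.02, 9.74 and 11.7 in CR and 3.81, 3.81, 4.44, 5.05 and 6.39 in PR tumors. Of the CR tumors 3 were above all PR tumors, and all PR tumors were below every tumor of the earlier days. The tumor that stood apart had 9.02, within the range of the other CR tumors. Areg per 100 CPM of Msln was 1.12 ± 0.240 in CR and 0.976 ± 0.293 in PR tumors at Day+7, overlapping those of Day-1. Hbegf was at 35.5 ± 12.3 and 36.1 ± 9.24, with means above those of Day-1. Its lowest CR value of Day+7 (20.1) lay under the highest values of Day-1 (22.3 in CR and 23.95 in PR). Whether Ereg and Msln come from the same cells was not tested.

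**Figure D4:**
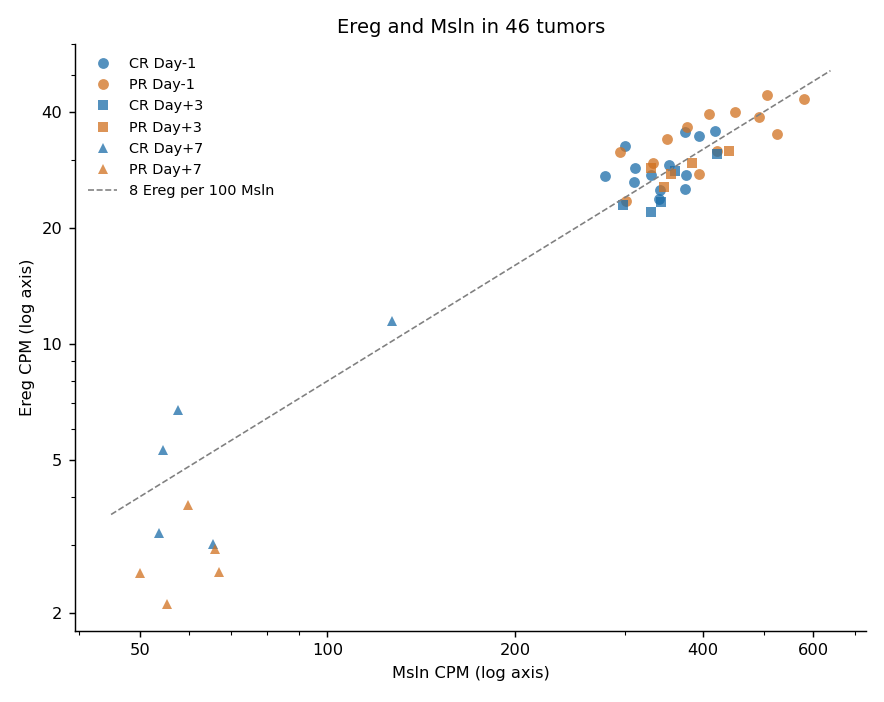
Ereg against Msln (CPM, both axes logarithmic) in 46 tumors, by response (CR blue, PR orange) and day (circles Day-1, squares Day+3, triangles Day+7), with a dashed line at a ratio of 8 to 100. The Day-1 and Day+3 tumors lie near the line, and at Day+7 the 5 PR tumors lie below it while 3 of the CR tumors lie above it. Ereg was chosen by the change of its CR minus PR difference between Day-1 and Day+7, so this split is a description only.

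Among the 26 tumors before CY, the EGFR ligands Ereg, Hbegf and Areg varied together from tumor to tumor. These relations use deviations from the group means at Day-1 and not the differences between groups that chose Ereg, and an adjusted p under 0.1 for both r and rho was the threshold. With log2 CPM centred on the CR and PR means, Ereg correlated with Hbegf (Pearson r = 0.79, permutation p = 1e-05, the smallest that 100000 permutations can give, adjusted p = 0.00017, Spearman rho = 0.73, permutation p = 7e-05, adjusted p = 0.000595). The r was 0.69 without the 2 tumors farthest from the median of Ereg, and 0.80 in the 14 tumors with title numbers up to 14 and 0.69 in the 12 above. Ereg correlated with Areg at r = 0.65 (permutation p = 0.00046, adjusted p = 0.00156) and rho = 0.69 (permutation p = 0.00012, adjusted p = 0.000595), with r = 0.59 without the 2 farthest tumors and 0.74 and 0.39 within the title blocks. With Egfr the sign was negative, at r = -0.70 (permutation p = 8e-05, adjusted p = 0.000623) and rho = -0.70 (permutation p = 8e-05, adjusted p = 0.000595), -0.72 without the 2 farthest tumors and -0.83 and -0.51 within the title blocks. Nrg1 was negative too, at r = -0.68 (permutation p = 0.00011, adjusted p = 0.000623) and rho = -0.69 (permutation p = 0.00014, adjusted p = 0.000595), -0.68 without the 2 farthest tumors, and -0.42 and -0.48 within the blocks. Values of one library share its depth and composition. The permutations did not keep to the title blocks, and all Day-1 tumors above 10 CPM of Krt5 had title numbers above 14.

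Ereg and Btc passed the threshold over the 26 tumors (r = 0.43, permutation p = 0.0277, adjusted p = 0.0589, rho = 0.44, permutation p = 0.025, adjusted p = 0.0531) with r = 0.45 without the 2 farthest tumors, but had -0.01 and 0.29 within the title blocks, so the relation did not hold within them. Of the other relations of Ereg, those with Erbb2 (r = 0.35, adjusted p = 0.137, rho = 0.39, adjusted p = 0.0763) and Erbb3 (r = -0.26, adjusted p = 0.239, rho = -0.36, adjusted p = 0.0978) passed by rank only, in permutation tests adjusted over the 17 relations, and that with Egf (r = 0.29) by neither measure. Within the blocks Erbb2 had 0.73 and 0.32, and Erbb3 -0.47 and 0.42. The remaining 9 relations set the genes against the summed skin keratinocyte list. Erbb3 was positively related to it (r = 0.69, permutation p = 0.00028, adjusted p = 0.00119, rho = 0.65, permutation p = 0.00035, adjusted p = 0.00119), with r = 0.54 without the 2 farthest tumors, and with 0.28 in the tumors with title numbers up to 14 and 0.74 above. Btc was negative (r = -0.61, permutation p = 0.00135, adjusted p = 0.00382, rho = -0.48, permutation p = 0.0138, adjusted p = 0.0335), at -0.59 without the 2 farthest tumors and at -0.10 and -0.47 within the blocks. Nrg1 had r = 0.51 over all (permutation p = 0.00801, adjusted p = 0.0195, rho = 0.49, permutation p = 0.0113, adjusted p = 0.032), 0.55 without the 2 farthest tumors, but -0.23 and -0.05 within the blocks, so this relation did not hold within them. With the skin list Egf (r = -0.38, adjusted p = 0.105, rho = -0.42, adjusted p = 0.0597) and Erbb2 (r = 0.28, adjusted p = 0.23, rho = 0.41, adjusted p = 0.0656) passed by rank only in the permutation tests. Within the blocks Egf had 0 and -0.10, and Erbb2 0.52 and 0.42. Ereg (r = -0.26), Areg (-0.10), Hbegf (-0.19) and Egfr (0.20) passed by neither measure. The sign of the first 3 turned within the title blocks, to 0.41 and 0.28 for Ereg, 0.36 and 0.26 for Areg, and 0.62 and 0.08 for Hbegf, and Egfr had -0.43 and 0.10.

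With log2 CPM centred on the 6 groups, the genes most like Ereg over the 46 tumors, among 10669 genes with a mean of at least 1 CPM, were Ak1 (adenylate kinase 1, r = 0.80), Cdr2 (0.78), Ercc1 (a DNA repair gene, 0.75), Eda2r (a receptor gene of the TNF receptor family, 0.75), Aspa (0.74) and Nckap1 (0.74). Without replicate 4 of CR Day+7 these were 0.70, 0.70, 0.64, 0.64, 0.65 and 0.61. Those most like Areg were Msln (0.77), Gm29084 (0.75), Ctnnal1 (0.75), Epha2 (a receptor tyrosine kinase gene, 0.74), Dnajc22 (0.74) and Cttn (0.73), or 0.70, 0.69, 0.68, 0.66, 0.67 and 0.65 without that tumor. Among the other 8 genes Ereg was nearest to Hbegf (r = 0.68, and 0.61 without that tumor), and Areg to Hbegf (0.65 and 0.58) and Erbb2 (0.58 and 0.45). Nrg1 and Egfr had an r of 0.52 (0.57 without it).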

How the data were processed

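Bulk RNA of 46 tumors from 46 mice was analysed. The submitters' processing notes name kallisto and the build GRCm38.p6, and the counts that the authors deposited, by gene symbol, are raw. The kallisto version and the summing of transcripts are not given in the sources used here. The labels give a read length of 50 bp and the methods another length. Of 46012 entries, the last (Pax7) was incomplete and was left out, and symbols sorted after it were not analysed here. Names turned into dates (13) stayed in the tests. Of 1035 pairs of libraries, none agreed within sampling noise (lowest chi-square per degree of freedom 3.53 over 13194 genes).

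After TMM normalization, counts were tested with edgeR 4.0.16 in R 4.3.3 (filterByExpr, glmQLFit in its legacy form, glmQLFTest, Benjamini-Hochberg adjustment, threshold FDR 0.1). The CR to PR comparison was fitted within a day. Days, and changes of the CR minus PR difference, were fitted with 6 group means on all 46 tumors. CPM used TMM-adjusted totals of the entries analysed, which leave out symbols sorted after Pax7, and log2 CPM a prior count of 2. Named were the 9 genes, the other ErbB genes, Krt5, up to 4 genes with the smallest p of each pathway list, and the 6 genes most like Ereg and Areg. Some of the genes this rule names are not reported here. The members and lists were chosen with earlier results of these data known. Other settings tried were limma-voom with quality weights (limma 3.58.1), DESeq2 1.42.0, size factors of DESeq2 in edgeR, another filter (none, or a mean of 1 CPM), a threshold of 0.05, CR and PR compared in the model of 46 tumors, the title number as a covariate, leaving out tumors with over 10 CPM of Krt5, and leaving out each tumor in turn. The share of all genes called by DESeq2 and limma-voom was determined only for CR against PR at Day-1. The tests were tested on simulated counts. RefSeq promoters were found for 5 of the 9 genes, and 4 are shown.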

Additional observations from a re-analysis of the deposited data

Results flagged for a closer look

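Areg in CR tumors of Day+7 had 1.73 CPM in replicate 4 (title CT7_6), far from the 0.432 to 0.782 CPM of the other 4. The same tumor had summed fibroblast markers of 33000 CPM and an Msln level of 127 CPM, both above all other Day+7 tumors. Nrg1 in PR tumors of Day+7 had 21.1 CPM in replicate 1 (title CT7_1), below the 25.3 to 26.9 CPM of the other 4. These 2 of 36 groups of 5 tumors were marked as having a sample far from the others, and chance marks about 1 in 20 groups. The change of the CR minus PR difference of Ereg between Day-1 and Day+7, 1.35 on the log2 scale, was marked as a difference between days by the contrast that also chose this gene, so it is a description.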

How the results depend on the processing

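The direction of change between days held under all alternatives for the 9 genes, except at Day+3 against Day-1 for Hbegf and Egfr, whose values were near 0. Hbegf (-0.02) turned to 0.012 with DESeq2 size factors, 0.025 with no filter and 0.013 with DESeq2, and ran from -0.050 to 0.028 with a tumor left out. Egfr (-0.028) turned to 0.005 with DESeq2 size factors, 0.019 with no filter, 0.005 with DESeq2 and 0.070 without the tumors above 10 CPM of Krt5, and ran from -0.048 to 0.027 with a tumor left out. The calls of Day+7 against either earlier day numbered 8 and 7 in every alternative, and those of Day+3 against Day-1 4 or 5, the added call being Egf or, without replicate 1 of PR Day+3, Erbb3 (-0.25, against -0.16). Between CR and PR at Day-1, the genes called numbered 0 in edgeR, 1 with DESeq2, 1 with limma-voom and 0 to 2 with a tumor left out. The log2 fold change of CR against PR at Day+7 for Ereg was 1.10, 0.639 with limma-voom and 0.713 to 1.275 with a tumor left out, the lowest without CR replicate 4, and its change from Day-1 was 1.35, 0.904 with limma-voom and 0.971 to 1.535 with a tumor left out. The causes were not tested. No paired analysis was possible because no mouse gave 2 tumors and the response and timepoint labels carry no replicate number. With 5 tumors a group at Day+3 and Day+7, only large differences between CR and PR could pass the test, and at 0.4 to 1.7 CPM Areg at Day+7 rests on few counts.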
